A study of Arabidopsis thaliana with 2 samples.

Results

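Of the 1996 peaks that PLT3 gave on the nuclear chromosomes of Arabidopsis in DAP-seq, 437 had their centre between 1 and 4000 bp upstream of the nearest transcription start site (TSS) of a protein-coding gene. Distances ran from the peak centre to the 5′ end of the gene, signed by its strand, and neither the height nor the sequence of a peak entered this choice. Another 1006 peaks lay from 0 to 4000 bp downstream of their nearest TSS, and 553 had no protein-coding TSS in that range. DAP-seq reads which fragments of purified genomic DNA, free of chromatin, are held by a tagged protein that was synthesised outside the plant. The DNA came from whole roots of the ecotype Col-0 at 5 days post-germination, and 3xFLAG-PLT3 was bound to it in 1 library and 3xFLAG-EGFP, the negative control, in another. Both proteins met the same DNA, so the genotype labels name the added protein and not a plant line, and no expression was measured by which the tissue could be checked. Each reaction used 200 ng of DNA library and 20 amplification cycles. The authors used the EGFP library when they called peaks, and it was not analysed here. With 1 library per protein no spread between libraries exists, and the tests below compare peaks of the PLT3 library with each other. The peak list gives no read counts, so the depth is unknown and a gene without a peak had none detectable at this depth.

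PLETHORA (PLT) proteins are AP2-type transcription factors that maintain the stem cell niche of the root and are expressed in a gradient that is highest at the root tip. PLT3, which the genome annotation lists as AIL6, acts redundantly with PLT1, PLT2 and BBM in the root. In the embryo the study detected its PLT3 reporter only from the globular stage. Upstream sequence holds the core promoter and many of the elements through which such factors act on a gene, but binding of naked DNA in vitro does not by itself show that a gene responds.

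The sequences below show the kinds of peak found upstream of genes, each as the 100 bp at the summit, from the reference TAIR10.1. In the first set, oriented 5′ to 3′ along the strand of the nearest gene, capitals mark the best match, on either strand, to the PLT3 motif learnt from gene-distal peaks (described below). The windows belong to DOF2.4 (chr2:15768109-15768208), the highest of these peaks that shared no sequence with another, to MIF2 (chr3:10923015-10923114) and CHR17 (chr5:6202261-6202360), which are among the best scores, and to the target genes CUC2 (chr5:21904164-21904263), HP6 (chr1:30132970-30133069) and YUC3 (chr1:1277015-1277114).
DOF2.4: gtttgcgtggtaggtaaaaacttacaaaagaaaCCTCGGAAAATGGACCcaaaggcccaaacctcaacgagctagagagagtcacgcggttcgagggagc
MIF2: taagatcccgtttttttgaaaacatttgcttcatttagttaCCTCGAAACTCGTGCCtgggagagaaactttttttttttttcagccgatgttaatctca
CHR17: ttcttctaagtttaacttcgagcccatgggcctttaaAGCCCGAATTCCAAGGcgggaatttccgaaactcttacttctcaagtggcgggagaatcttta
CUC2: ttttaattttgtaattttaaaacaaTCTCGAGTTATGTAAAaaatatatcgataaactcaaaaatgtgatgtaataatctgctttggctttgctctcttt
HP6: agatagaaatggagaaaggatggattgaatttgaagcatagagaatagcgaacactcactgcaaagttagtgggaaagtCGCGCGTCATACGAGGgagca
YUC3: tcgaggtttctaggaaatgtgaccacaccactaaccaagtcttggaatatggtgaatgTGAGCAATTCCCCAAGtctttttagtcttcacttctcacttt

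The second set shows a sequence that was shared by many of the highest upstream peaks, and none of the 4 windows has a called site of the PLT3 motif. These windows are oriented along the shared word of 20 bases, and capitals mark its first exact copy in each window. They lie upstream of AT1G23300 (chr1:8266721-8266820, minus strand), the gene of the highest peak, and of JKD (chr5:744573-744672, plus strand), TAR1 (chr1:8276877-8276976, minus strand) and FANCM (chr1:13087869-13087968, plus strand).
AT1G23300: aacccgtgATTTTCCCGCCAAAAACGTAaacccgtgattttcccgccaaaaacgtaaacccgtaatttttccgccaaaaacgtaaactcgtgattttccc
JKD: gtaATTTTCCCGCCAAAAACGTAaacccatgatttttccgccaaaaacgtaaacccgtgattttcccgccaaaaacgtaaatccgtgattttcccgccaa
TAR1: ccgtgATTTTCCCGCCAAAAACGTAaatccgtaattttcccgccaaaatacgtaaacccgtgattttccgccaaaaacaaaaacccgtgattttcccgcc
FANCM: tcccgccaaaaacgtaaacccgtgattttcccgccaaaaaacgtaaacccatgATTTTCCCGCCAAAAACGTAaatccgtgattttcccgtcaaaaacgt

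The upstream peaks were spread over the whole range but thinned out with distance. Their median distance from the TSS was 1163 bp, with quartiles of 584 and 2017 bp. The nearest lay 5 bp and the farthest 3939 bp from the TSS. In the first 500 bp there were 86 peaks, from 501 to 1000 bp there were 95, and in the last 500 bp of the range only 13. How much of the genome lies at each distance from its nearest TSS was not measured, so these counts show no preference of PLT3 for a distance. They were found on all 5 chromosomes, with 110, 61, 82, 83 and 101 peaks on chromosomes 1 to 5. They belonged to 422 genes, which is 1.54% of the 27444 protein-coding genes. Of these genes, 15 had 2 upstream peaks and 0 had more. By significance, 412 of the 437 peaks had a q-value of at most 0.01 and 211 had one of at most 1e-05.

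**Figure D1:**
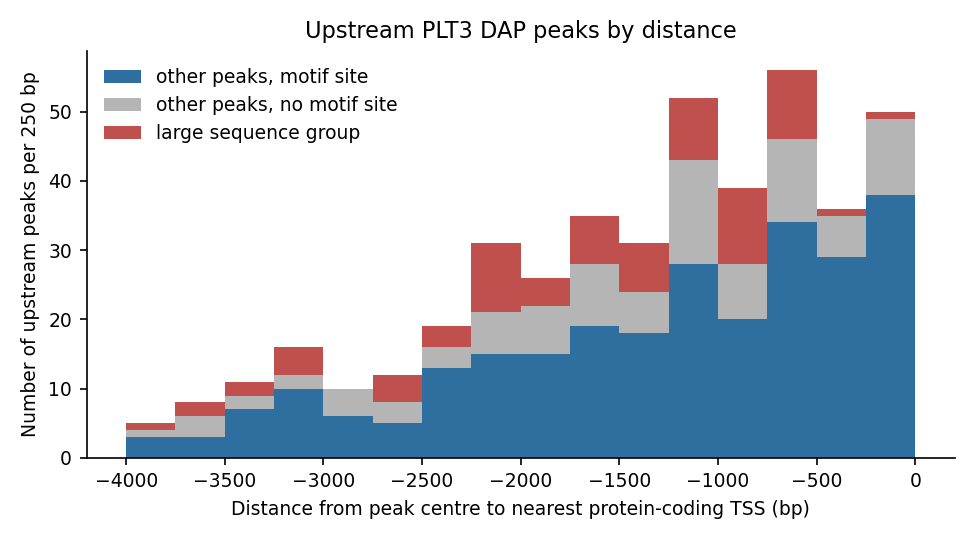
Number of upstream PLT3 DAP peaks (y axis) in bins of 250 bp of the distance from peak centre to the nearest protein-coding TSS (x axis, bp), stacked by sequence class. Peaks with a motif site were most frequent close to the TSS, where the large sequence group had only 2 peaks within 500 bp.

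By annotated feature, 218 of the 437 peak centres lay between genes and 116 in a coding exon of another gene. A further 64 were in a pseudogene, 16 in an intron, 12 in a non-coding RNA gene and 11 in a UTR of another gene. Centres in coding exons and centres between genes differed in sequence. In coding exons 69.8% (60.9 to 77.4%) had a motif site at the summit and 4.31% shared 20 bases with another peak, as described below. Between genes these shares were 54.1% (47.5 to 60.6%) and 46.8%, and in pseudogenes both were 56.3%. Of the 76 upstream peaks of the large sequence group described below, 63 lay between genes and 13 in pseudogenes. Only 2 of the 76 had a site, so the lower shares with a site there are not independent of that group. The median fold enrichment was 4.78 in coding exons, 4.87 between genes and 5.23 in pseudogenes. For 114 peaks a gene that is not protein-coding had a nearer TSS. A second protein-coding gene on the other side, facing away, also had its TSS within 4000 bp of 124 peaks, and for 25 of them both start sites were within 1000 bp. For such peaks the assignment to a gene is ambiguous. At AT2G43270, an F-box gene, the peak centre lay 21 bp from its TSS and 90 bp from that of AT2G43280.

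Genes with 2 upstream peaks had peaks of unequal height in some cases and of similar height in others, as 4 examples chosen after their values were seen show. At MPK16, a mitogen-activated protein kinase gene, the peak at 3081 bp had a fold enrichment of 9.66 and that at 805 bp 2.90. At PUM17, for an RNA-binding protein of the Pumilio family, they were 5.37 at 3754 bp and 3.07 at 1781 bp. The peaks of AT3G60920, a BEACH domain gene, were closer in height, with 9.83 at 373 bp and 7.82 at 2393 bp, as were those of AT4G20690, with 7.41 at 329 bp and 7.02 at 1767 bp.

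At the edges of the range the peaks did not stand apart in height. Just inside the TSS were the peaks of AT5G27606, AT2G05645 and AT3G42660, at 5, 17 and 18 bp upstream, with a fold enrichment of 5.14, 4.86 and 4.12. Just outside, at 0, 4 and 8 bp downstream, were those of AT3G01030, AT1G17490 and ATFP8, with 7.85, 4.58 and 5.00. At the far edge, the peaks of AT3G46380, DFL1 and GRF6 lay 3939, 3910 and 3856 bp upstream, with a fold enrichment of 4.26, 8.21 and 5.13. Beyond it, at −4001, −4048 and −4065 bp, were AT3G31950, AT4G07515 and AT3G44265, with 6.30, 5.37 and 3.9.

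The upstream peaks were slightly higher than those downstream of the TSS, and this difference rested on peaks with repeated sequence. Fold enrichment at the summit over the background, as the peak caller of the authors gave it, had a median of 4.86 upstream, with quartiles of 3.99 and 6.40 and a range from 2.53 to 20.8. Downstream the median was 4.66, and for gene-distal peaks it was 4.86. The mean log2 fold enrichment was 2.41 ± 0.58 (SD, 437 peaks) upstream and 2.29 ± 0.47 (SD, 1006 peaks) downstream. The difference was 0.11 on the log2 scale (95% confidence interval 0.05 to 0.18, n = 437 and 1006, Welch's test, p = 0.00108 after Benjamini-Hochberg adjustment over the 11 tests made here). Without peaks that share a stretch of 20 bases with another peak, the difference was 0.00 (−0.05 to 0.06, n = 292 and 863, adjusted p = 0.979). Between upstream and gene-distal peaks the difference was 0.04 (−0.03 to 0.11, n = 437 and 553, adjusted p = 0.326). Restricted to q-values of at most 1e-05, it was 0.13 (0.05 to 0.21, n = 211 and 283, adjusted p = 0.00431). That cut selects peaks by a measure related to the height that is compared. Of the 50 upstream peaks with the largest −log10 q, 32 belong to the large sequence group described below. In the other alternatives the difference from gene-distal peaks lay between −0.05 and 0.05 and did not pass the threshold. It was −0.05 without that group.

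Peak width had a median of 312 bp upstream, and the log2 width differed from that downstream by 0.06 (−0.01 to 0.12, n = 437 and 1006, Welch's test, adjusted p = 0.154). At a q-value of at most 1e-05, the difference was 0.12 (0.05 to 0.20, n = 211 and 450, adjusted p = 0.00290), but without peaks that share 20 bases it was −0.06 (n = 292 and 863, adjusted p = 0.278). The upstream peaks were poorer in G and C. Their GC content was 40.5% ± 6.38 (SD) against 43.2% ± 5.79 (SD) downstream, a difference of −2.69 percentage points (−3.39 to −1.99, n = 437 and 1006, Welch's test, adjusted p = 6.16e-13). Without peaks that share 20 bases the difference was −2.05 points (−2.87 to −1.22, n = 292 and 863, Welch's test, adjusted p = 8.03e-06). Without the large sequence group described below it was −1.83 points. The GC content of the genome on either side of start sites was not measured, so the difference shows no preference of PLT3. Within 1 kb of the TSS, peaks were not detectably higher or lower than beyond it, with a difference in log2 fold enrichment of −0.06 (−0.17 to 0.05, n = 181 and 256, adjusted p = 0.342).

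**Figure D2:**
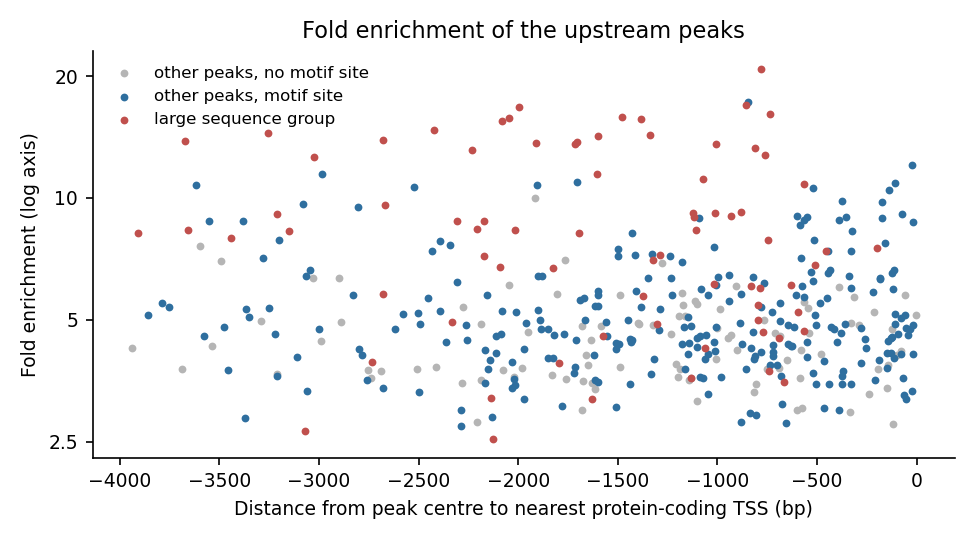
Fold enrichment (y axis, log scale) of each of the 437 upstream peaks against the distance of its centre from the TSS (x axis, bp), coloured by sequence class. Most of the points above 10 belong to the large sequence group and are spread over distances beyond 500 bp.

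Which sequence PLT3 bound was read with a matrix of 16 positions, learnt on the summits of 214 gene-distal peaks that shared no 20 bases with another peak. Neither upstream nor downstream peaks trained it. Bases of at least 60% in it were CNTNGNNNNNCGNNNN, where N stands for any base. A site was called in the 100 bp at a summit if it scored above a level reached by 5% of the windows that flank the training peaks. By this measure 265 of the 437 upstream peaks had a site at the summit, or 60.6% (95% Wilson interval 56.0 to 65.1%), compared with 66.8% of all nuclear peaks. In the flanks of the upstream peaks, 500 bp from the summit, 21 windows or 4.81% (3.2 to 7.2%) passed. Windows of the same length centred 1000 bp upstream of each protein-coding TSS passed in 4.40% of cases. Summits held a site 12.6-fold as often as flanks (256 peaks with a site only at the summit against 12 with a site only in the flank, exact binomial test, two-sided, adjusted p = 1.09e-59).

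The sites sat close to the summit, with their middle a median of 5.5 bp from it and 74.0% of them within 10 bp. Counted from the 5′ end of the matrix, 97.7% of the upstream sites had T at position 3, 99.6% had G at position 5, 93.6% had G at position 12 and 72.8% had G at position 14. The windows of MIF2 and CHR17 above show these bases. Sites had no preferred direction, as 129 of 265 or 48.7% (42.7 to 54.7%) were on the strand of the gene (two-sided exact binomial test, adjusted p = 0.713). The 5 highest scores were at AT5G25360, MIF2, a mini zinc finger gene, GSTT2, a glutathione S-transferase gene, CHR17, a chromatin remodelling factor, and the lectin gene AT1G53060. Their peaks were not the highest, with a fold enrichment of 5.18, 5.60, 5.37, 4.13 and 4.59.

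The share of peaks with a site was compared along the distance to the TSS. In the first 500 bp, 67 of 86 peaks or 77.9% (68.1 to 85.4%) had one, while in the other bins of 500 bp the share was between 46.2 and 63.0%. Within 1 kb it was 66.9% and beyond 1 kb 56.3%, a difference of 10.6 percentage points (1.31 to 19.5, two-sided Fisher's exact test, adjusted p = 0.0508). It passed the threshold of 0.05 in 3 alternatives, with distances from the summit (12.8 points, n = 190 and 256, adjusted p = 0.0138), with all annotated genes (13.4 points, n = 303 and 260, adjusted p = 0.00470) and with matrices learnt across chromosomes (12.5 points, n = 181 and 256, adjusted p = 0.0214). It did not pass in the 6 others planned, and was smallest without peaks that share 20 bases (4.51 points, n = 138 and 154, adjusted p = 0.794) and with windows of 200 bp (6.06 points, n = 181 and 256, adjusted p = 0.326). Without the large sequence group described below it was 6.63 points (n = 158 and 203, adjusted p = 0.355). Without peaks that share sequence, 77.3% of the 75 peaks in the first 500 bp had a site, and between 61.5 and 77.8% of those in the other bins, apart from the last, where 3 of 5 did. Peaks sharing sequence made up 12.8% of the first bin and between 32.5 and 66.7% of each of the others.

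A site was less frequent upstream than downstream, where 707 of 1006 peaks or 70.3% had one. The difference was −9.64 percentage points (−15.0 to −4.31, two-sided Fisher's exact test, adjusted p = 0.00108). It was not present among peaks that share no 20 bases with another peak, of which 211 of 292 or 72.3% had a site upstream and 70.7% downstream, a difference of 1.58 points (−4.57 to 7.32, n = 292 and 863, adjusted p = 0.962). Sharing was more frequent upstream, at 145 of 437 peaks or 33.2% (28.9 to 37.7%), than downstream, at 143 of 1006 or 14.2% (12.2 to 16.5%). It was most frequent among gene-distal peaks, at 339 of 553 or 61.3% (57.2 to 65.3%), so it is not particular to upstream peaks. Only 37.2% of the upstream peaks that share sequence had a site. This is not a trait of all shared sequence, since 76 of these 145 peaks belong to the large group described below. Of those 76, only 2 had a site. In the group with the next most upstream members, 73 of its 91 nuclear peaks had one.

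**Figure D3:**
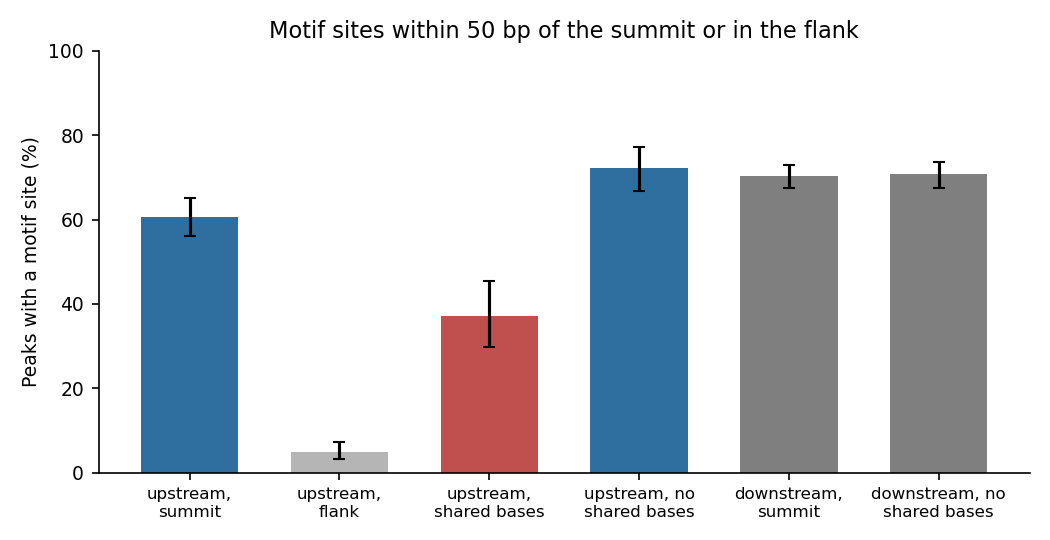
Share of peaks with a motif site (y axis, %) at the summits and flanks of upstream peaks and at the summits of downstream peaks, for all peaks and for those that do or do not share 20 bases with another peak. Bars show the share and error bars its 95% Wilson interval, and the upstream bar for peaks without shared bases reaches 72.3%.

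Of the 145 upstream peaks that share sequence, 76 belonged to a single group, found after the data were examined and therefore described without a test. Adjusted p-values of comparisons made without this group are descriptive only. When peaks were joined wherever they shared 20 bases, the largest group held 133 nuclear peaks. Upstream of a gene were 76 of these, or 17.4% of the upstream peaks, while 25 were downstream (2.49% of the downstream peaks) and 32 gene-distal (5.79%). The other groups with an upstream member were far smaller in number of such peaks, with at most 11 each. Among the 76 upstream members, 63 lay between genes and 13 in pseudogenes, and 2 were within 500 bp of the TSS.

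Peaks of this group were higher and wider than the other upstream peaks. Their median fold enrichment was 8.30, with quartiles of 5.66 and 13.2, compared with 4.65 for the 361 other upstream peaks. Their median width was 501.5 bp and their median GC content 35.8%. Only 2 of the 76 had a motif site at the summit, compared with 263 of the 361 others (72.9%). The matrix was learnt without these peaks and could not have taken up their sequence. Of the 10 upstream peaks with the largest −log10 q, 9 belonged to the group, and of the top 20, 19 did. Without the group, the difference in log2 fold enrichment between upstream and downstream peaks was 0.01 (−0.05 to 0.06, n = 361 and 981, adjusted p = 0.784) and that in the share with a site was 0.89 points (−4.64 to 6.09, adjusted p = 0.784).

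The highest upstream peak was that of AT1G23300, a gene for a MATE efflux family protein, where the fold enrichment reached 20.8 and −log10 q reached 57.4. Its centre lay 780 bp from the TSS. Next by −log10 q came AT4G08960, DOF2.4, AT3G29580, AT1G74088, Tudor2, AT3G47210, AT5G47980, AT5G35870 and AT1G12100, with a fold enrichment between 13.6 and 17.3. DOF2.4, which encodes a plant-specific zinc finger transcription factor of the DOF family, was the only one of the 10 outside the group and the only one with a motif site. Its peak lay 845 bp from the TSS, at a −log10 q of 44.4 and a fold enrichment of 17.3. Other members of the group lay upstream of genes with known roles, among them SOS2, a protein kinase of salt tolerance, with a fold enrichment of 13.8, HLS1, which is needed for the apical hook, with 12.6, and the MADS-box gene AGL36 with 14.4.

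The word shared most often at summits of the group was ATTTTCCCGCCAAAAACGTA, at 29 of them, and it was present in 42 of the 76 peaks. In the nuclear genome it had 385 exact copies, of which 344 or 89.4% lay within a PLT3 peak. The word was picked from these peaks and many copies can lie in 1 peak, so this share is no independent evidence of binding to it. Copies were arranged in arrays, as the windows of JKD and AT1G23300 show. Between neighbouring copies in a peak the distance was most often 28 bp, in 59 of 149 cases. Peaks with more copies were higher. The 34 peaks with 0 copies had a median fold enrichment of 6.12 (2.53 to 16.9), the 18 with 1 to 3 copies had 9.09 (3.19 to 16.7) and the 24 with 4 or more had 13.0 (5.22 to 20.8), so the ranges overlap. Their median widths were 426.5, 505.5 and 615 bp. COBL2 had the most, with 11 copies, while AT3G29580, among the highest, had 0. The authors kept only reads with a mapping quality of at least 30, and how many reads were lost in such repeats was not tested.

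The word contains the letters TTTCCCGC, which belong to the binding sequence known for E2F transcription factors, regulators of the cell cycle. Chosen after this was seen, the words TTTCCCGC, TTTGGCGC, TTTCGCGC and TTTGCCGC, of which only the first lies in the shared word, were searched on both strands of the 100 bp at the summit. Any of them can overlap a match on the other strand. At least 1 was present at 66 of the 76 upstream summits of the group (86.8%) and in 0 of their flanks. Only 9 of the 361 other upstream peaks (2.49%) had such letters. Of the 1006 downstream peaks, which still include 25 of the group, 27 had them (2.68%). The share was 6.76% of all nuclear peaks and 0.496% of the windows 1000 bp upstream of all protein-coding genes. The first of the words was taken from the sequence shared in the group, so the high share in the group is no independent evidence. A match gives the letters only, and whether any protein other than PLT3 bound there was not tested.

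**Figure D4:**
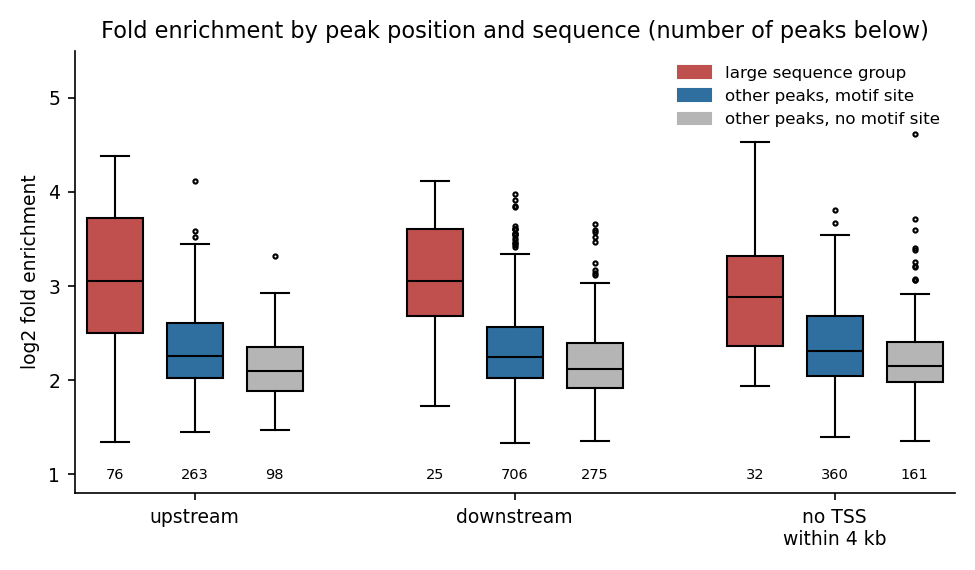
log2 fold enrichment (y axis) of upstream, downstream and gene-distal peaks, divided into the large sequence group, other peaks with a motif site and other peaks without a site, with the number of peaks below each box. Boxes show quartiles and median, whiskers reach up to 1.5 times the box height, and points are peaks beyond. By their medians, the large group lies highest and other peaks without a site lowest in each position.

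The motif went with higher peaks only once the repeated sequence was set aside. Over all upstream peaks, those with a site had a log2 fold enrichment of 2.34 ± 0.47 (SD, 265 peaks) and those without a site 2.51 ± 0.70 (SD, 172 peaks), a difference of −0.17 (−0.29 to −0.05, n = 265 and 172, Welch's test, adjusted p = 0.0142). This call was lost with all annotated genes, with a range of 2000 bp and with a stricter threshold for sites. Among the peaks that share no 20 bases with another, the direction turned, and the 211 peaks with a site were higher by 0.20 than the 81 without (0.10 to 0.30, n = 211 and 81, adjusted p = 0.000202). Without the large group alone it was also 0.20 (0.11 to 0.29, n = 263 and 98, Welch's test, adjusted p = 5.83e-05). The group was chosen after the data were seen, and only 2 of its 76 upstream peaks had a site. Its removal takes out high peaks without a site, so this p-value is no independent support. The planned comparison among peaks that share no 20 bases leaves out the same group, so its turn in direction is not independent of that removal.

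More sites in a peak went with a higher peak in the same set. Of the upstream peaks without shared sequence, the 41 with 0 sites had a median fold enrichment of 3.83, the 123 with 1 site 4.44, the 92 with 2 sites 4.78 and the 36 with 3 or more sites 5.61. Wider peaks have more room for sites, and the median width rose from 201 bp with 0 sites to 432 bp with 3 or more. The score of the best site had a correlation with log2 fold enrichment of r = 0.22 over these 292 peaks of the same library, and of −0.22 over all 437. After DOF2.4, the highest peaks of this set were at AT2G43270, with a fold enrichment of 12.0 and 3 sites, at AT1G15290 with 11.5, at AT2G31920 with 10.9 and at AT2G04280 with 10.8, a list chosen after the values were seen. All 4 had a motif site, at 21, 2983, 110 and 1903 bp from the TSS. SDH2-2, which encodes a subunit of succinate dehydrogenase, had 10.5 at 139 bp.

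In 80 of the peaks without shared sequence, neither a motif site nor E2F letters were present at the summit. Their median fold enrichment was 4.24. The highest of them was upstream of ANNAT1, an annexin gene, in a coding exon of AT1G35710, with 9.98.

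The study listed PLT target genes, bound in several datasets and raised by PLT overexpression, and a smaller set of core targets expressed in several meristems. Upstream peaks were found at 28 target genes (8.38% of the list) and at 12 core targets (6.09% of theirs), compared with 1.54% of all protein-coding genes. Both lists were built in part from these peaks, so the counts are not independent evidence of binding. The study also found that the binding sites behind its lists were enriched for the PLT motif. The share of target and core peaks with a site is therefore not independent of how the lists were made. At the target genes 23 of 28 peaks had a site (82.1%), 14 lay within 500 bp of the TSS and 1 was in the large sequence group. Of the 409 other upstream peaks, 59.2% had a site, or 71.1% of those without shared sequence, and 72 lay within 500 bp. Their median fold enrichment was 4.50, compared with 4.89 at the 409 other peaks. On the log2 scale the means differed by −0.19 (−0.37 to −0.02, n = 28 and 409, Welch's test, adjusted p = 0.0508). The difference was −0.20 with all annotated genes (n = 26 and 537, adjusted p = 0.0365), the only alternative in which it passed the threshold. Without peaks that share 20 bases it was −0.10 (n = 26 and 266, adjusted p = 0.375), without the large sequence group −0.10 (n = 27 targets, adjusted p = 0.355) and at a q-value of at most 1e-05, with 7 target peaks left, −0.03. The group held 75 of the 409 other peaks.

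**Figure D5:**
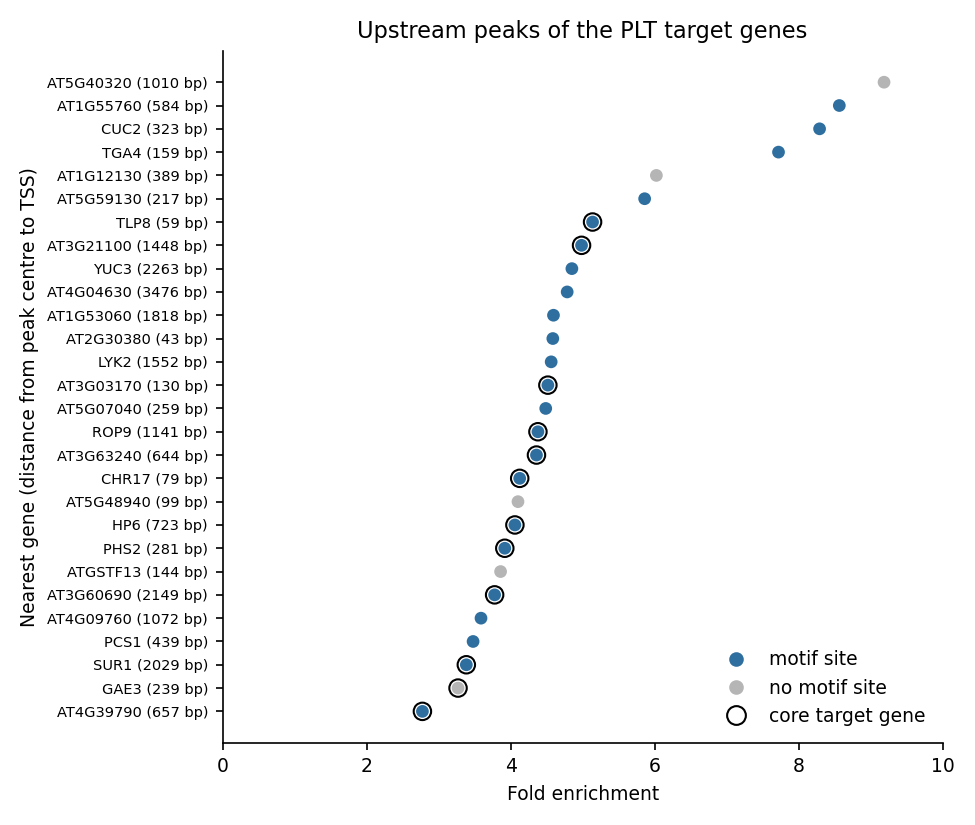
Fold enrichment (x axis) of the upstream peak of each of the 28 target genes (y axis, with the distance from the TSS), with filled blue points for peaks with a motif site, grey points for those without and rings for core targets. The core targets lie between 2.77 and 5.14, below the 6 highest.

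The upstream peaks of the 12 core targets had a median fold enrichment of 4.09, with quartiles of 3.68 and 4.41, and 11 of 12 had a site. At genes outside the target list, upstream peaks without shared sequence had a median of 4.63, with quartiles of 3.84 and 5.67. The difference was not tested. TLP8, a tubby-like gene, had the highest fold enrichment among the core targets, at 5.14 and 59 bp from the TSS. AT3G21100, for an RNA-binding protein, had 4.98 at 1448 bp, AT3G03170 had 4.52 at 130 bp and ROP9, for a small GTPase, had 4.38 at 1141 bp in a coding exon of AT4G28940. AT3G63240 had 4.36 at 644 bp and CHR17 had 4.13 at 79 bp. HP6, known as AHP6, an inhibitor of cytokinin signalling, had 4.06 at 723 bp. PHS2, for an alpha-glucan phosphorylase, had 3.92 at 281 bp, in a UTR of the neighbouring gene PHT4;3, and AT3G60690, a SAUR-like auxin-responsive gene, had 3.78 at 2149 bp. SUR1, for an enzyme of glucosinolate synthesis, had 3.38 at 2029 bp. GAE3, for an epimerase that provides sugar for pectin, had 3.27 at 239 bp and no site, and AT4G39790 had 2.77 at 657 bp.

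Among the other target genes, the largest fold enrichment was at AT5G40320, with 9.18 at 1010 bp. It was the only target in the large sequence group and had no motif site. AT1G55760, a BTB/POZ gene, had 8.56 at 584 bp. CUC2, a NAC transcription factor that sets organ boundaries, had 8.29 at 323 bp, with 3 sites in the peak. TGA4, a bZIP factor, had 7.72 at 159 bp, where the centre lay in a coding exon of AT5G10050. AT1G12130, for a flavin-binding monooxygenase, had 6.02 at 389 bp and no site at the summit.

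Upstream peaks at listed genes of root patterning and growth were few, as the 1.54% of all protein-coding genes with such a peak would give for lists of this size. In the PLT family, 0 of 7 matched genes had an upstream peak, in the cell cycle list 0 of 94 and in the chromatin list 0 of 69. For the stem cell niche it was 1 of 46, for auxin 3 of 119, for cytokinin 1 of 66, for peptides 1 of 76 and for the cell wall 2 of 125. CHR17, CHR5 and SDG21, which had upstream peaks, were not among the matched genes of the chromatin list. Downstream of the TSS, 2 PLT family genes, 1 cell cycle gene and 5 chromatin genes of these lists had a peak. The share of all genes with a downstream peak was not computed.

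Some of the peaks at these genes carried the repeat and others the motif. JKD, a zinc finger factor that restricts movement of SHORT-ROOT in the ground tissue, was the niche gene, with a fold enrichment of 13.3 at 811 bp and 8 copies of the shared word. TAR1, a relative of the auxin synthesis enzyme TAA1, had 2 peaks of the large group, one with 11.4 at 1603 bp and another with 2.66 at 3070 bp. DFL1, a GH3 gene for an enzyme that conjugates auxin, had a group peak of 8.21 at 3910 bp, near the end of the range. COBL2, a COBRA-like gene, had 11.1 at 1071 bp, in a pseudogene.

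The others had a motif site. YUC3, for a flavin monooxygenase of auxin synthesis, had 4.85 at 2263 bp, and its flank passed the site threshold as well. EPF2, a secreted peptide that limits the stomatal lineage, had 5.67 at 1667 bp, in a pseudogene. QRT3, for a pectin-degrading enzyme of pollen separation, had 5.28 at 1899 bp, in a coding exon of EMB1895.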

How the data were processed

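Per the study's methods and the processing notes of the submitters, reads were trimmed (fastp 0.23.2), aligned to TAIR10 (BWA 0.7.17) and filtered to a mapping quality of at least 30 (SAMtools 1.15), and peaks were called by MACS3 3.0.0a7 with EGFP as the control (q-value 0.05). As deposited, each peak has the fold enrichment as a linear ratio, −log10 p and −log10 q values and an integer score, which like the −log10 p was not used. Genes and sequence came from TAIR10.1 (RefSeq), where all nuclear peaks lay within the chromosome ends, and positions are 1-based. The 40 organellar peaks were left out. A TSS tie, which occurred for 1 peak, went to the upstream gene.

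The motif was learnt by expectation maximisation. Welch's test was run on log2 values, Fisher's exact test and exact binomial tests on shares, all two-sided, with Benjamini-Hochberg adjustment over 11 tests. Peaks were treated as independent, although some share sequence. Intervals are at 95% and cover variation between peaks of 1 library or counting error only. Methods were tried on simulated data, which were drawn independently and held no groups of shared sequence. Those trials therefore do not cover p-values of peaks that share sequence. Alternatives were q-values of 0.01 and 1e-05, the summit, all annotated genes, a range of 2000 bp, no shared sequence, a site threshold of 1%, windows of 200 bp, matrices learnt across chromosomes, GC content as a covariate and −log10 q as the measure.

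Genes named are those of the 10 largest −log10 q, the core targets and the 5 other targets of largest fold enrichment, listed pathway genes with an upstream peak, the 3 peaks on each side of both limits and the 5 best scores. Others were chosen after their values were seen. The members, lists and tests were chosen with earlier results of these data known. Python 3.11.15, numpy 2.4.6, pandas 2.3.3, scipy 1.17.1, statsmodels 0.14.6 and matplotlib 3.10.9 were used.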

Additional observations from a re-analysis of the deposited data

How the results depend on the processing

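No paired analysis was possible because PLT3 and EGFP have 1 library each. Of 83 alternatives to the settings of the tests, 64 kept the direction and the side of the threshold. In 9 the direction turned, for 7 of them with neither value past the threshold. The number of upstream peaks, 437, was 211 at a q-value of at most 1e-05, since fewer peaks enter. At that q-value, upstream minus gene-distal log2 fold enrichment was 0.13 and upstream minus downstream log2 width 0.12, both past the threshold. The cut selects peaks by a measure related to their height. Without peaks that share 20 bases, upstream minus downstream was 0.0041 for log2 fold enrichment and 1.58 points for the share with a site, and peaks with a site minus those without gave 0.20. The last 2 turned in direction. Without those peaks, 3 differences that did not pass also turned, to −0.060 for log2 width, 0.020 for log2 fold enrichment within 1 kb minus beyond and 50.2% for sites on the strand of the gene, which was 50.8% with windows of 200 bp. With all annotated genes, log2 fold enrichment turned to −0.00063 for upstream minus gene-distal and 0.034 for within 1 kb minus beyond, and log2 width to −0.019. The comparison of peaks with and without a site also lost its call with all annotated genes (−0.12), a range of 2000 bp (−0.12) and a site threshold of 1% (−0.091). The share with a site within 1 kb minus beyond passed the threshold with the summit (12.8 points), all annotated genes (13.4 points) and matrices across chromosomes (12.5 points), as did the target genes with all annotated genes (−0.20). With all annotated genes, some training peaks of the matrix enter the upstream set. The causes were not tested.

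Of 12 comparisons added after seeing the data, 5 kept their direction and call. Without the large sequence group, upstream minus downstream was 0.0094 for log2 fold enrichment and 0.89 points for the share with a site, and peaks with a site minus those without gave 0.20, and 3 differences that did not pass turned, to −0.051 for log2 fold enrichment against gene-distal peaks, −0.044 for log2 width and 0.029 for log2 fold enrichment within 1 kb minus beyond. With GC content as a covariate and without shared sequence, upstream minus downstream log2 fold enrichment was 0.0078. With 1 library, nothing here speaks to the spread between experiments, and the unknown depth limits which weak sites could be called.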
